A study of Mus musculus with 42 samples.

Results

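The input RNA of mouse embryonic stem cells labelled Trim71-/- was compared with that of cells not so labelled, in the first of 2 experiments of a study on how separate RNA-silencing pathways meet on the Tnrc6 proteins. The members were chosen by their labels: 3 libraries labelled HA-AVI-Tnrc6a, Trim71-/- (called Trim71KO here) and 3 labelled HA-AVI-Tnrc6a alone (called tagged), which makes 6 of the 42 libraries of the series. The 3 input libraries of the line without the tag (untagged) are given beside them as levels for some genes. All 3 lines are mES cells of strain 129S6/SvEvTac that also carry the yGlob reporter GFP_5xT71BS and stably transfected FLAG-Cas9::T2A::Blasticidin, so the tagged control differs from wild-type cells by the tag, the reporter and Cas9. They were grown on gelatin in serum with LIF, in triplicate and to confluency. The input is total RNA of the cleared lysate, taken before the HA pull-down and sequenced with a stranded kit. The name Trim71KO stands throughout for the libraries so labelled. How many clones stand behind each line is not given in the sources used here, so p-values measure spread between replicate libraries and not between clones. That spread was pooled over all groups of the experiment, including the HA pull-down libraries.

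TRIM71, also known as LIN41, is an RNA-binding protein of the TRIM-NHL family that binds short hairpins in messenger RNAs and represses them. It is made in pluripotent cells and the early embryo, and the let-7 microRNAs silence it as cells differentiate. Tnrc6 proteins, the mammalian GW182 homologues, join Argonaute and microRNA to the deadenylases that shorten and destabilise the bound messenger. Embryonic stem cells in serum and LIF are a mixed population: most express the epiblast programme led by Oct4, Sox2 and Nanog, and a minority shift towards primitive endoderm, the extraembryonic lineage that GATA6 specifies and that lines the yolk sac.

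The 6 libraries held between 14598744 and 19965489 counts. Levels are given as CPM, counts divided by library size after scaling between libraries, and a change is the log2 level in Trim71KO minus that in tagged cells, with its standard error (SE) and an adjusted p over all genes tested. The summed level of 6 of 6 embryonic stem cell markers lay between 5080 and 5880 CPM in the tagged libraries and between 5610 and 5700 CPM in Trim71KO. Tagged replicate 2 stood apart from its group. Its deviations from the mean of the 9 input libraries fell with gene length, from a median of 0.17 on the log2 scale in the shortest quintile of genes to -0.23 in the longest, and the change between Trim71KO and tagged cells had a median of -0.10 in the shortest quintile and 0.15 in the longest. Without that library these medians were -0.04 and 0.07. Over all genes the median change was -0.01.

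**Figure D1:**
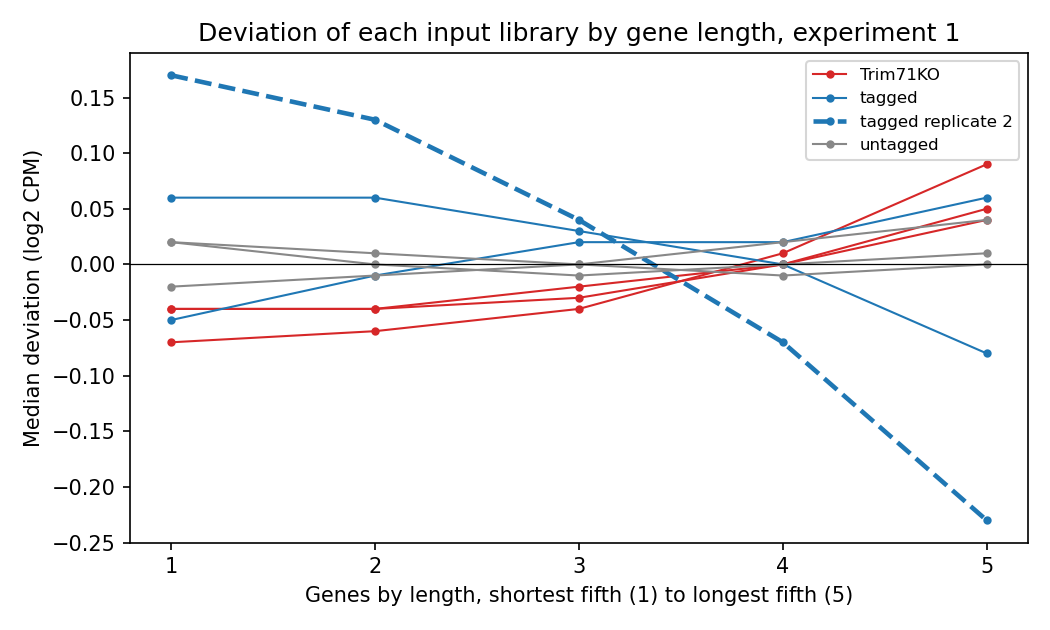
Median deviation of each input library of experiment 1 from the mean of the 9 input libraries (y axis, log2 CPM) in quintiles of genes ordered by length (x axis); one line is one library, coloured by group. Tagged replicate 2 (dashed) runs from 0.17 in the shortest quintile to -0.23 in the longest, while the 3 Trim71KO libraries run from between -0.07 and -0.04 up to between 0.04 and 0.09.

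The targeted gene was examined first. Trim71 RNA stood at 265, 227 and 230 CPM in the tagged libraries and at 284, 283 and 278 CPM in the Trim71KO libraries. The knockout libraries were thus slightly the higher ones, with a log2 change of 0.23 (SE 0.09, adjusted p = 0.0437). That call was lost without either of tagged replicates 2 and 3 (adjusted p = 0.119 and 0.174) and without any one of the Trim71KO libraries (0.108, 0.114 and 0.101). It was also lost with the replicate number as a block (0.0506), with relative log expression size factors (0.0538) and with the trend with gene length removed, where the change was 0.04 (0.736). In the second experiment Trim71 RNA was also higher, by 0.42 in the Trim71KO libraries (adjusted p = 0.000411). A count over the whole gene does not show which part of it was altered, so the RNA level does not check the label. Tnrc6a itself was at 95.1, 57.1 and 81.9 CPM in tagged and at 106, 112 and 108 CPM in Trim71KO cells (log2 0.48, SE 0.17, adjusted p = 0.038), a call lost without tagged replicate 2 (0.181) or 3 (0.0557), without any one Trim71KO library (0.0546, 0.0837 and 0.0721) and with the trend with gene length removed (0.257). The untagged libraries had Tnrc6a at 104.9, 97.44 and 103.5 CPM, by their mean nearer to Trim71KO than to tagged cells. Ago2 did not pass the test (log2 0.16, SE 0.17, adjusted p = 0.497), but did without tagged replicate 1 (0.041).

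Of 18772 genes tested, 6377 (34.0%) passed an adjusted p of 0.05: 3102 (16.5%) were higher in Trim71KO and 3275 (17.4%) lower. Most of these changes were small, and 1209 genes moved at least 2-fold, 795 of them upwards and 414 downwards. Without tagged replicate 2, 4703 genes passed. The counts for the gene groups below are to be read against these shares. Most called genes named below had to show no overlap between tagged and Trim71KO libraries, so such a gap is no further evidence. The lists were chosen with earlier results of these data known, so their counts are no independent evidence. Where none of a list's members is said, for experiment 1, to have risen or fallen, none passed by edgeR's quasi-likelihood test, by DESeq2 or at an unadjusted p under 0.05 (0 in each) in that direction.

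The primitive and visceral endoderm programme was mostly lower in Trim71KO. Of its 26 members tested, 15 fell and 2 rose, against 17.4% and 16.5% of all genes, and the median change over the tested members was -0.73. Transcription factors of early endoderm, the receptor that marks the lineage and endocytic genes of the visceral endoderm were among the genes that fell. Gata6, the transcription factor that specifies primitive endoderm, was at 11.4, 8.89 and 11.7 CPM in the tagged libraries and at 0.406, 0.264 and 0.576 CPM in the Trim71KO libraries. The groups did not overlap, the untagged libraries (9.47, 9.29 and 9.91 CPM) sat with the tagged ones, and the fitted difference was 25.2-fold (log2 -4.66, SE 0.23, adjusted p = 1.92e-12). In counts, Gata6 had 185, 155 and 218 in the tagged libraries and 7, 6 and 13 in Trim71KO. Gata4, its partner, fell less, from 14.6, 14.6 and 16.1 CPM to 5.22, 4.67 and 4.25 CPM (log2 -1.69, SE 0.16, adjusted p = 7.08e-08). Sox17, which follows the GATA factors, fell from 5.23, 3.84 and 6.28 CPM to 0.348, 1.06 and 0.62 CPM (log2 -2.86, SE 0.27, adjusted p = 3.45e-08). Sox7, another SOX factor of the lineage, stayed at 4.12, 4.36 and 3.97 CPM against 3.42, 2.42 and 3.50 CPM and did not pass (log2 -0.42, SE 0.23, adjusted p = 0.168). Foxa2 was scarce in every library: 20, 15 and 18 counts in tagged and 0, 1 and 4 counts in Trim71KO cells (log2 -3.56, SE 0.62, adjusted p = 0.000112). The forkhead gene Foxq1 fell by 3.19 (SE 0.27, adjusted p = 1.17e-08).

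Upstream sequences of 3 members that fell are shown because these genes moved together and GATA factors are known regulators of the lineage. They are the 250 bases before an annotated start, from RefSeq on GRCm38.p6, each 5′ to 3′ on the gene's own strand: chr2:13491877-13492126 on the minus strand for Cubn, chr15:6299539-6299788 on the plus strand for the outermost start of Dab2, and chr5:75152001-75152250 on the plus strand for Pdgfra. Capitals mark the GATA-type words AGATAA and TGATAA, searched on both strands.
Cubn: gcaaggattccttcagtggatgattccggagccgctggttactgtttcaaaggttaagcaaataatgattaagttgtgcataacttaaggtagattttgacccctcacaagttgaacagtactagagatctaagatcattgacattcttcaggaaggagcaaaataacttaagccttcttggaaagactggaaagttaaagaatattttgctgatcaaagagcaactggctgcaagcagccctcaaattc
Dab2: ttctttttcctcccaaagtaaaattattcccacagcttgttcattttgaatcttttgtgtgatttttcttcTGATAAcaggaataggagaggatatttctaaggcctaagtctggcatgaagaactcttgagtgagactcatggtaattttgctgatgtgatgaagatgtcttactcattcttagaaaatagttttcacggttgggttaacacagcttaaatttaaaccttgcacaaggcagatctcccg
Pdgfra: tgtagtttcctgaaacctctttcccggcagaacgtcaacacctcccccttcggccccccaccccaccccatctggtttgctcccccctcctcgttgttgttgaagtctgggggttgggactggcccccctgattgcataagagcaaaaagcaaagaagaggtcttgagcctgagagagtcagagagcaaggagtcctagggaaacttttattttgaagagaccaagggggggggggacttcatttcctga

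The Dab2 window shown has 1 such word, 179 bases before that start, and the other Dab2 window (chr15:6386498-6386747, not shown) has none. The windows of Cubn and Pdgfra have none. Of the 25 windows found for 18 genes of the endoderm list, 3 (12%) held a match, against 5452 of 32851 windows (16.6%) over all genes. A match or its absence in these windows says nothing of whether a factor binds there.

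The genes those windows belong to encode the surface and uptake machinery of the endoderm. Pdgfra, the receptor that marks nascent primitive endoderm, fell from 12.8, 8.26 and 10.1 CPM to 1.51, 1.06 and 1.64 CPM (log2 -2.89, SE 0.21, adjusted p = 1.07e-09). Dab2, an endocytic adaptor, fell from 21.7, 16.97 and 22.4 CPM to 3.02, 2.60 and 3.54 CPM (log2 -2.73, SE 0.14, adjusted p = 5.99e-12). Cubn, the cubilin receptor that takes up nutrients in visceral endoderm, fell from 18.3, 8.72 and 14.2 CPM to 1.51, 0.837 and 1.11 CPM (log2 -3.60, SE 0.24, adjusted p = 2.96e-10). For each of the 3 the highest Trim71KO library was below the lowest untagged one. It was also below the lowest tagged one, which was a condition for naming them. Srgn, which encodes the proteoglycan serglycin, fell by 3.88 (SE 0.36, adjusted p = 3.75e-08). Cited1, a weakly expressed cofactor, fell by 1.28 (adjusted p = 0.0118), but not without tagged replicate 2 (adjusted p = 0.0716) or Trim71KO replicate 1 (0.0521).

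The basement membrane genes that endoderm cells secrete in quantity moved less and in both directions. The type IV collagen chains Col4a1 and Col4a2 fell by 0.72 (SE 0.13, adjusted p = 0.000129) and 0.96 (SE 0.13, adjusted p = 5.64e-06), laminin Lamb1 fell by 0.74 (adjusted p = 9.27e-05), and Serpinh1, the collagen chaperone, fell by 0.57 (adjusted p = 0.00165). Nidogen Nid1 rose instead, from 160, 101 and 139 CPM to 309, 299 and 322 CPM (log2 1.21, SE 0.17, adjusted p = 6.79e-06), and Rhox5, a homeobox gene of the X chromosome, rose by 0.75 (adjusted p = 0.00546). Sparc (log2 0.06, adjusted p = 0.601) and the laminin chain Lama1 (log2 -0.28, adjusted p = 0.192) did not pass, although Lama1 was lower without tagged replicate 2 (adjusted p = 0.00515). Cited1, Col4a1, Col4a2, Lamb1 and Serpinh1 were named after their values were seen, and Gata4, Sox7 and Foxa2 as defining markers. Summed over 8 defining markers of primitive endoderm, the level was 76.6 to 79.1 CPM in untagged, 66.5 to 89.3 CPM in tagged and 12.9 to 15.4 CPM in Trim71KO libraries. In bulk RNA, fewer cells of a lineage and less RNA per cell cannot be told apart.

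**Figure D2:**
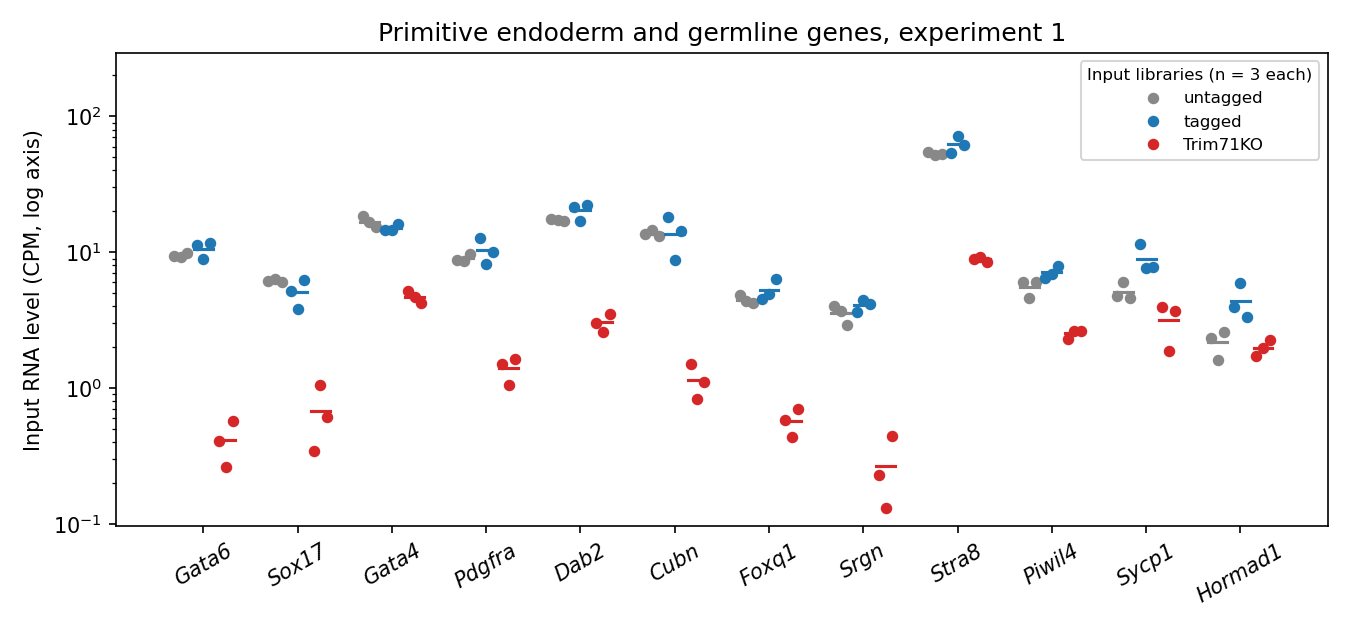
Level of 12 endoderm and germline genes in each input library of experiment 1 (y axis, CPM on a log axis); points are libraries, short lines are means, n = 3 per group. For Gata6 the Trim71KO points lie between 0.264 and 0.576 CPM and all untagged and tagged points at 8.89 CPM or above, whereas for Hormad1 the untagged points lie beside those of Trim71KO.

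The pluripotency genes did not move as a block. Pou5f1 (Oct4) was at 1414, 1739 and 1618 CPM in tagged and at 1640, 1610 and 1530 CPM in Trim71KO libraries, groups that overlapped (log2 0.00, SE 0.11, adjusted p = 0.987). Sox2 (log2 -0.11, SE 0.09, adjusted p = 0.388) and Nanog (log2 0.01, SE 0.09, adjusted p = 0.918), the latter named after its value was seen, did not pass either. In the core list 4 of 8 members fell modestly: Utf1 by 0.50 (adjusted p = 0.00105), the let-7 antagonist Lin28a by 0.49 (adjusted p = 0.00311), Dppa4 by 0.45 (adjusted p = 0.00165) and Sall4 by 0.31 (adjusted p = 0.0144, and 0.0652 without Trim71KO replicate 3). The naive pluripotency list went the other way, with 8 of 12 members higher, none lower and a median change of 0.45. Klf4, a LIF-responsive naive factor, rose from 492, 425 and 494 CPM to 714, 787 and 844 CPM (log2 0.73, SE 0.10, adjusted p = 5.66e-06). Its co-regulator Tfcp2l1 rose by 0.71 (SE 0.13, adjusted p = 0.000208), the growth factor Fgf4 by 0.66 (adjusted p = 0.000225) and Tcl1, a coactivator of AKT, by 0.61 (adjusted p = 0.000217). Klf2 did not pass (log2 0.10, adjusted p = 0.573). For these 4 genes that rose, no tagged library reached the lowest Trim71KO library, which was a condition for naming them.

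The formative epiblast list, whose genes come up as cells leave the naive state, was divided: 4 of 15 rose and 4 fell, with a median of 0.08. Otx2, which drives that exit, rose from 28.1, 29.9 and 27.2 CPM to 43.6, 44.2 and 42.0 CPM (log2 0.61, SE 0.11, adjusted p = 0.000149). Sall2 rose by 0.71, Grhl2, an enhancer-opening factor of epithelia, by 0.60, and Foxd3 by 0.45 (adjusted p = 0.000215, 0.00348 and 0.00526). The DNA methyltransferase gene Dnmt3a fell from 172, 151 and 154 CPM to 82.7, 82.2 and 76.0 CPM (log2 -0.99, SE 0.09, adjusted p = 3.21e-08). Its paralogue Dnmt3b was at 143, 101 and 139 CPM against 132, 123 and 126 CPM and did not pass (log2 -0.01, adjusted p = 0.953). Among zinc-finger genes of the ZIC family, Zic5 fell by 1.27 (SE 0.13, adjusted p = 1.69e-07) and Zic2 by 1.15 (SE 0.19, adjusted p = 6.57e-05). Lef1, a nuclear partner of beta-catenin, fell from 4.00, 2.98 and 4.51 CPM to 0.987, 0.925 and 0.443 CPM (log2 -2.30, SE 0.38, adjusted p = 6.36e-05).

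Germline and meiosis genes fell or did not pass: 10 of 18 members fell, none rose, and the median was -0.53. Stra8, the retinoic-acid-induced gene that licenses meiosis (chromosome 6, 34920163 to 34939344 on GRCm38.p6), was the member with the largest change. It stood at 53.9, 71.2 and 61.8 CPM in tagged and at 8.94, 9.21 and 8.5 CPM in Trim71KO libraries, a 7.01-fold difference with no overlap (log2 -2.81, SE 0.13, adjusted p = 1.92e-12), and the untagged libraries (54.4, 52.1 and 53.3 CPM) again sat with the tagged ones. Piwil4, a PIWI protein of the piRNA pathway, fell from 6.52, 6.88 and 7.95 CPM to 2.32, 2.64 and 2.66 CPM (log2 -1.48, SE 0.20, adjusted p = 7.22e-06). Sycp1, of the synaptonemal complex, fell by 1.51 (SE 0.22, adjusted p = 1.2e-05), with untagged libraries (4.81, 6.01 and 4.58 CPM) between Trim71KO and tagged cells. Hormad1, which encodes a protein of the meiotic chromosome axis, fell by 1.13 (SE 0.26, adjusted p = 0.00163). For Hormad1 the untagged libraries (2.33, 1.62 and 2.60 CPM) lay at the level of Trim71KO (1.74, 1.98 and 2.26 CPM) and below tagged cells (3.94, 5.91 and 3.33 CPM). The germ cell genes Dazl (log2 -0.01, adjusted p = 0.96) and Mael (log2 -0.06, adjusted p = 0.69) did not pass.

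Among the embryonic lineages, 5 of 13 neural members fell and 2 rose. The neural progenitor factor Sox1 fell from 12.7, 11.6 and 12.2 CPM to 6.33, 5.99 and 6.29 CPM (log2 -0.97, SE 0.14, adjusted p = 9.52e-06), and the neurofilament genes Nefl and Nefm fell by 1.21 (SE 0.11, adjusted p = 2.33e-08) and 0.92 (SE 0.11, adjusted p = 9.31e-07). The adhesion gene Ncam1 rose from 16.4, 11.98 and 12.9 CPM to 33.3, 34.9 and 39.7 CPM (log2 1.39, SE 0.15, adjusted p = 5.13e-07), as did the microtubule gene Map2 by 1.20 (SE 0.19, adjusted p = 3.16e-05). The neuronal tubulin Tubb3 did not pass (log2 0.12, adjusted p = 0.423). Of 7 mesoderm and primitive streak genes tested, 1 was called: Eomes, a T-box factor, rose by 0.67 (SE 0.18, adjusted p = 0.00646). DESeq2 also called 1 member lower, and the fit without Trim71KO replicate 1 called 1 lower. The trophoblast list had 2 higher and 2 lower of 11. Plet1 rose from 4.86, 5.28 and 4.89 CPM to 13.8, 13.1 and 14.2 CPM (log2 1.45, SE 0.17, adjusted p = 8.44e-07) and the Hippo effector Tead4 rose by 0.79, while Ascl2 fell by 0.94 and the keratin Krt18 by 0.63 (adjusted p = 3.65e-06, 0.00357 and 0.00443).

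Genes that earlier work on TRIM71 reported as its targets or as changed without it were assembled from general knowledge of that work, so their direction here is no independent evidence. Of 14 tested, 8 rose and 4 fell, with a median of 0.75. Plxnb2, which encodes a semaphorin receptor (chromosome 15, 89155546 to 89182018 on GRCm38.p6), was at 50.7, 37.2 and 46.8 CPM in tagged and at 181, 168 and 182 CPM in Trim71KO libraries. The groups were far apart and the untagged libraries were at 56.4, 56.9 and 61.8 CPM; the fold was 3.95 (log2 1.98, SE 0.13, adjusted p = 9.08e-11). Cdkn1a, the p21 inhibitor of cyclin-dependent kinases, rose from 22.9, 27.6 and 23.5 CPM to 50.0, 50.7 and 51.8 CPM, or 2.06-fold (log2 1.04, SE 0.10, adjusted p = 3.45e-08). Its untagged libraries lay between tagged and Trim71KO. Inhbb, which encodes an activin subunit, rose from 218, 226 and 245 CPM to 434, 440 and 443 CPM (log2 0.93, SE 0.11, adjusted p = 1.6e-06). Rbl2, the pocket protein p130, rose by 0.87 (SE 0.15, adjusted p = 9.19e-05). In each of these 4 genes all Trim71KO libraries also lay above all untagged ones. That they lay above all tagged ones was a condition for naming the genes.

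The 4 members that fell included Egr1, Nab2 and Shcbp1. Egr1, an immediate early transcription factor, was variable among tagged libraries at 188, 113 and 146 CPM, and stood at 36.8, 31.5 and 38.2 CPM in Trim71KO and 79.4, 82.2 and 103 CPM in untagged libraries (log2 -2.07, SE 0.17, adjusted p = 7.1e-09). Its corepressor Nab2 fell by 0.78 (SE 0.10, adjusted p = 4.93e-06), and Shcbp1, an adaptor that binds SHC1, fell by 0.59 (SE 0.11, adjusted p = 0.000204). The untagged level of Shcbp1 (47.7, 50.9 and 49.4 CPM) was nearer to Trim71KO (43.1, 44.4 and 43.5 CPM) than to tagged cells (58.8, 69.8 and 68.0 CPM).

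The lists of proliferation genes moved in opposite directions. Of 14 cell-cycle brakes, 7 rose and 1 fell, with a median of 0.43, and without Trim71KO replicate 3 only 4 were called higher. Besides Cdkn1a and Rbl2, the antiproliferative gene Btg2 rose from 27.4, 27.9 and 23.8 CPM to 46.8, 48.8 and 49.6 CPM (log2 0.88, SE 0.08, adjusted p = 4.23e-08). Cdkn1c (p57) fell by 0.72 (SE 0.16, adjusted p = 0.00142) and Cdkn1b (p27) did not pass (log2 -0.10, adjusted p = 0.475). Of 20 drivers, 10 fell and 4 rose. Ccne1, the G1/S cyclin E1, fell from 133, 149 and 147 CPM to 76.95, 72.3 and 68.1 CPM (log2 -0.98, SE 0.10, adjusted p = 1.17e-07), with the untagged libraries at 142, 147 and 149 CPM. Cdk1 fell by 0.50 (adjusted p = 8.07e-05) and the S-phase cyclin Ccna2 by 0.41 (adjusted p = 0.00111). Ccne2, cyclin E2, fell by 0.95 (SE 0.15, adjusted p = 3.85e-05), and its untagged libraries (10.7, 10.0 and 9.25 CPM) were at the Trim71KO level (9.29, 9.25 and 9.47 CPM) and not at that of tagged cells (20.2, 16.97 and 16.9 CPM). Ccnd2, cyclin D2, rose against the trend from 8.06, 5.68 and 7.36 CPM to 24.2, 21.4 and 18.4 CPM (log2 1.60, SE 0.19, adjusted p = 1.44e-06).

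The p53 response list had 7 of 17 members higher and 1 lower, the latter lost without any of 4 of the 6 libraries. In addition to Cdkn1a and Btg2, the secreted stress factor Gdf15 rose by 0.96 (SE 0.16, adjusted p = 7.59e-05) and Bbc3, the proapoptotic PUMA, by 0.69 (SE 0.13, adjusted p = 0.000234). For Gdf15 the untagged libraries (8.76, 8.14 and 9.25 CPM) were nearer to Trim71KO (9.75, 11.5 and 11.7 CPM) than to tagged cells (5.05, 5.39 and 6.50 CPM). Trp53 itself did not pass (log2 0.10, adjusted p = 0.412). In the BCL2 family, 5 of 15 fell, 3 without Trim71KO replicate 3, and 2 rose. Pmaip1 (NOXA), a BH3-only killer, fell from 72.5, 80.8 and 73.0 CPM to 31.5, 31.9 and 32.3 CPM (log2 -1.24, SE 0.10, adjusted p = 3.06e-09), and Bcl2l11 (BIM) fell by 0.69 (adjusted p = 8.02e-05), whereas Bmf rose by 0.74 (adjusted p = 6.96e-05). The BH3-only members therefore moved both ways.

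Ligands, receptors and feedback genes of several signalling pathways changed. In the Nodal, activin and TGF-beta list 10 of 18 rose and 2 fell (1 without Trim71KO replicate 2 or tagged replicate 1), with a median of 0.39. Lefty1 and Lefty2, adjacent genes on chromosome 1 that encode secreted Nodal antagonists and are induced by Nodal signalling, were among the most changed. Lefty1 rose from 2.83, 2.35 and 2.36 CPM to 6.85, 8.72 and 9.21 CPM (log2 1.72, SE 0.20, adjusted p = 6.81e-07), and Lefty2 from 4.98, 6.08 and 8.86 CPM to 18.2, 22.5 and 20.8 CPM (log2 1.62, SE 0.17, adjusted p = 1.65e-07). The untagged libraries lay in between, at 4.84, 3.51 and 4.96 CPM for Lefty1 and at 9.06, 9.48 and 8.97 CPM for Lefty2. For both, no tagged library reached the lowest Trim71KO one, which was a condition for naming them. The activin receptor gene Acvr2b rose by 0.85 (SE 0.16, adjusted p = 0.000318), and Skil, a SMAD corepressor, fell by 0.53 (SE 0.10, adjusted p = 0.000395). The ligand Nodal (log2 -0.12, adjusted p = 0.486) and the receptor Tgfbr1 (log2 -0.05, adjusted p = 0.849) did not pass. Of 13 BMP and Id genes, 3 rose and 1 fell: the ligand gene Bmp4 rose by 0.36 (adjusted p = 0.00556), the Id genes Id3 and Id4 by 0.58 (adjusted p = 0.00126) and 1.27 (adjusted p = 0.000317), and Id1 fell by 0.84 (adjusted p = 0.000138).

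Of 9 Hedgehog genes, 5 rose and 2 fell. Ptch1, the Hedgehog receptor and a direct output of the pathway, rose from 51.8, 31.6 and 42.5 CPM to 152, 143 and 152 CPM (log2 1.83, SE 0.13, adjusted p = 6.25e-10), with the untagged libraries at 71.0, 65.6 and 68.2 CPM. Gli1, the transcription factor that reports pathway activity, rose from 47.5, 37.5 and 45.2 CPM to 105, 92.4 and 87.5 CPM (log2 1.13, SE 0.09, adjusted p = 8.68e-09), with the untagged libraries in between. Hhip, a ligand trap that is also an output, rose by 1.78 from a low level (0.615, 0.746 and 0.537 CPM; SE 0.39, adjusted p = 0.0011), and Gli2 rose by 0.58 (adjusted p = 0.000922). The transducer Smo (log2 0.03, adjusted p = 0.814) and the inhibitor Sufu (log2 -0.02, adjusted p = 0.929) did not pass. Both calls of lower Hedgehog genes were lost without Trim71KO replicate 3, and 1 was lost without Trim71KO replicate 2 or tagged replicate 1 or 2.

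In the Wnt list 5 of 15 rose and 3 fell, and its outputs were divided: the secreted antagonist Notum rose by 1.12 (SE 0.21, adjusted p = 0.000274) and the DNA-binding Tcf7l2 by 0.63 (adjusted p = 0.000169), while the feedback gene Axin2 fell by 0.62 (SE 0.13, adjusted p = 0.000982), as Lef1 did. Ctnnb1, which encodes beta-catenin, did not pass (log2 0.11, adjusted p = 0.438). Of 14 Notch genes 4 rose and 1 fell, the latter lost without any one Trim71KO library or tagged replicate 3. The receptor genes Notch1 and Notch3 rose by 1.14 (SE 0.15, adjusted p = 3.65e-06) and 1.12 (SE 0.13, adjusted p = 1.01e-06), and the target Hes1 rose by 0.55 (adjusted p = 0.00156). Notch2 did not pass (log2 0.28, adjusted p = 0.226), but did without tagged replicate 1 (0.0369). Among 19 genes of FGF signalling and ERK feedback, 8 fell and 4 rose, with a median of -0.35. The ERK phosphatase gene Dusp6 fell from 67.8, 72.6 and 63.5 CPM to 42.7, 43.3 and 41.5 CPM (log2 -0.68, SE 0.09, adjusted p = 3.43e-06), the AP-1 gene Junb fell by 0.48 (adjusted p = 0.00225), and Egr1 belongs to this list too. The feedback inhibitor Spry4 rose by 0.56 (SE 0.12, adjusted p = 0.000853) and the ETS factor Etv5 did not pass (log2 -0.02, adjusted p = 0.90). The LIF and STAT3 list had 4 of 12 higher and 4 lower: Stat3 rose by 0.42 (adjusted p = 0.00259), as did its outputs Klf4 and Tfcp2l1, given above, while the outputs Pim1, Gbx2 and Socs2 fell by 0.98, 0.77 and 0.45 (adjusted p = 2.49e-08, 3.1e-06 and 0.000541). The receptor Lifr did not pass (log2 0.07, adjusted p = 0.752).

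**Figure D3:**
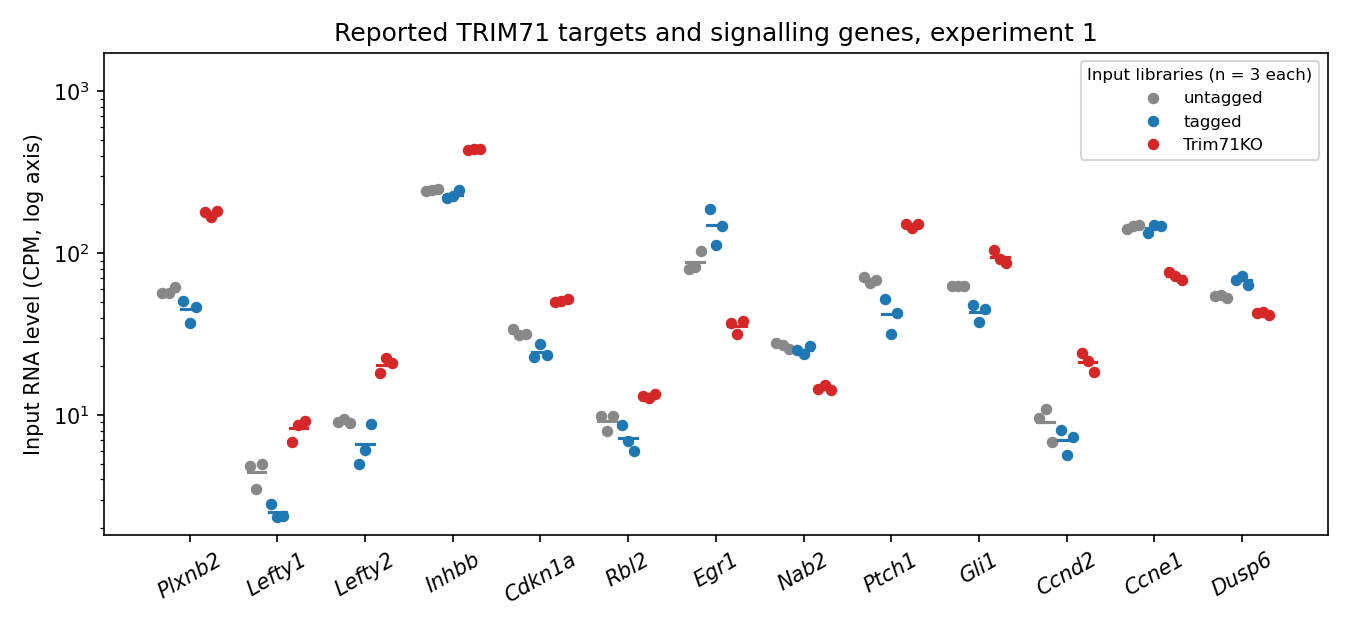
Level of 13 reported TRIM71 targets and signalling or cell-cycle genes in each input library of experiment 1 (y axis, CPM on a log axis); points are libraries, short lines are means, n = 3 per group. For Plxnb2 the Trim71KO points lie between 168 and 182 CPM and the untagged and tagged points between 37.2 and 61.8 CPM, and for Dusp6 the Trim71KO points, at 41.5 to 43.3 CPM, lie below all others.

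Surface and matrix genes rose more often than they fell. Of 17 plexin, semaphorin and ephrin genes, 8 rose and 1 fell, the latter lost without tagged replicate 2. The ephrin receptor Epha4 rose from 15.7, 13.8 and 18.5 CPM to 39.5, 35.7 and 41.8 CPM (log2 1.28, SE 0.16, adjusted p = 2.14e-06), Plxna2 rose by 1.25 (SE 0.16, adjusted p = 2.68e-06) and Ephb2 by 0.62 (adjusted p = 0.000173). In the extracellular matrix list 9 of 17 rose and none fell, with a median of 0.48, and 7 were higher without tagged replicate 2. Fibrillin Fbn2 rose from 2.22, 0.918 and 1.83 CPM to 6.04, 5.81 and 5.36 CPM (log2 1.79, SE 0.25, adjusted p = 1.03e-05), the collagen chain Col5a1 rose by 0.82 (SE 0.14, adjusted p = 6.56e-05) and nidogen Nid2 by 0.76 (SE 0.14, adjusted p = 0.000162). Of 18 genes of the epithelial to mesenchymal list, 7 rose and 2 fell, and none was called lower without tagged replicate 2 or Trim71KO replicate 1. The matrix genes Tgfbi, from 23.3, 24.4 and 22.3 CPM to 73.6, 80.4 and 83.1 CPM (log2 1.76, SE 0.11, adjusted p = 6.56e-11), and Fn1, from 802, 388 and 584 CPM to 1252, 1184 and 1331 CPM (log2 1.09, SE 0.18, adjusted p = 8.68e-05), rose together with Esrp1, an epithelial splicing factor (log2 1.19, SE 0.16, adjusted p = 4.64e-06). E-cadherin, Cdh1, did not pass (log2 0.18, adjusted p = 0.179), but did in a fit of the input libraries alone (0.0356).

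Markers of other cell types moved beside the matrix genes. Of 7 fibroblast markers 5 (Col1a2, Col3a1, Postn, Lum and Dcn) had no row in the table used here. The summed level of the other two, Thy1 and Col1a1, was 20.4 to 22.7 CPM in untagged, 22.6 to 24.5 CPM in tagged and 58 to 61.8 CPM in Trim71KO libraries, and its part in the rise of the matrix genes was not tested. In the longer fibroblast list of 11 genes, 4 were tested, of which Thy1 and Col1a1 rose and Pdgfrb (log2 0.12, adjusted p = 0.571) and Tagln (log2 -0.33, adjusted p = 0.253) did not pass. Most of the sum was Thy1, which rose from 20.1, 23.2 and 21.96 CPM to 55.8, 54.0 and 57.6 CPM (log2 1.36, SE 0.12, adjusted p = 1.17e-08). Col1a1 was at 2.52, 1.32 and 2.47 CPM against 4.58, 3.96 and 4.29 CPM, and its call (log2 1.02, adjusted p = 0.00933) was lost without tagged replicate 2 (adjusted p = 0.0593). Of 4 endothelial markers 3 had a row, and their sum lay between 53.5 and 55.9 CPM in tagged and between 78.1 and 85.7 CPM in Trim71KO libraries. It includes Pecam1, which embryonic stem cells also express (log2 0.48, adjusted p = 0.0115; 0.0642 without tagged replicate 3 and 0.0793 without Trim71KO replicate 3), and Tek (log2 1.26, adjusted p = 9.49e-05). The 2 blood markers with a row, of 5, summed to between 23.1 and 27.8 CPM in tagged and between 29.9 and 31 CPM in Trim71KO libraries, with Cd68 higher by 0.69 (adjusted p = 6.56e-05). In the longer blood list of 8 genes, 3 were tested, of which Cd68 rose and 2 did not pass. Without tagged replicate 1, or with the trend with gene length removed, 1 member was called lower.

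The imprinting and DNA methylation list split by gene, with 7 of 24 higher and 8 lower, or 5 lower without Trim71KO replicate 2. The paternally expressed genes Mest and Peg3 rose by 0.82 (SE 0.09, adjusted p = 8.09e-07) and 0.97 (SE 0.12, adjusted p = 2.08e-06), whereas Dlk1, Igf2 and Peg10, which are also paternally expressed, fell by 1.23, 1.16 and 1.05 (adjusted p = 8.78e-06, 3.85e-05 and 7.68e-07). Tet2, a demethylating dioxygenase, rose from 280, 133 and 197 CPM to 361, 367 and 410 CPM (log2 0.90, SE 0.16, adjusted p = 0.000149). Polycomb genes had 6 of 19 lower and 2 higher: Eed and Rnf2, core subunits of PRC2 and PRC1, fell by 0.55 and 0.47 (adjusted p = 1.78e-05 and 0.000321), while Ezh1 rose by 0.68 (adjusted p = 3.02e-05). For Eed the untagged libraries (224, 221 and 219 CPM) were nearer to Trim71KO (199, 200 and 198 CPM) than to tagged cells (269, 312 and 290 CPM). For Rnf2 they (124, 122 and 131 CPM) were at the level of Trim71KO (128, 126 and 128 CPM) and below tagged cells (177, 191 and 163 CPM).

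Among the stress and metabolic lists, the heat shock genes had the largest share of calls. Of 11 heat shock genes 6 fell and none rose, and 5 were lower without tagged replicate 2. The inducible chaperones Hspa1a and Hspa1b, near-identical copies whose reads can be split between them, fell by 0.94 (adjusted p = 0.000182) and 0.80 (adjusted p = 0.000176), and the mitochondrial chaperonins Hspd1 and Hspe1, which share a promoter, fell by 0.68 (adjusted p = 1.84e-05) and 0.60 (adjusted p = 0.00168). The hypoxia list had 5 of 16 lower and 2 higher, and 2 lower without tagged replicate 2 or 3 without tagged replicate 3. The mitophagy gene Bnip3 and the collagen hydroxylase gene P4ha2 fell by 1.19 and 0.86 (adjusted p = 0.000143 and 0.000409), while Vegfa and Epas1, which encodes HIF-2alpha, rose by 0.60 and 0.67 (adjusted p = 0.000114 and 0.00056). Glycolysis was even at 3 of 20 higher and 3 lower, with Ldha and Tpi1 lower by 0.54 and 0.51 and Pfkp higher by 0.62 (adjusted p = 0.00135, 0.0018 and 8.14e-05). With the trend with gene length removed, 1 glycolysis gene was higher and 4 were lower. Cholesterol synthesis had 2 of 19 higher, 1 without Trim71KO replicate 3. It had 2 lower, 1 without Trim71KO replicate 1 or 3 or tagged replicate 2 or 3. The ATF4 and unfolded protein response had 3 of 20 higher and 1 lower. The shares lower were 10.5% and 5%, against 17.4% of all genes. Their shares higher were 10.5% and 15%, the latter near the 16.5% of all genes. Alternatives that keep all libraries compared called up to 6 cholesterol and 5 ATF4 members higher. The retinoic acid list had 3 of 14 lower and 1 higher, the latter lost without any one of 5 of the 6 libraries. Besides Stra8, which it shares with the germline list, the receptor gene Rarg fell by 0.74 (adjusted p = 6.79e-06). In the Hippo list 4 of 16 rose (2 without Trim71KO replicate 2 or 3 or tagged replicate 3) and 3 fell: the YAP outputs Ccn1 and Ccn2 fell by 1.52 and 1.06 (adjusted p = 1.34e-05 and 0.00255), as did the LIM gene Ajuba by 0.72 (adjusted p = 0.000141), and the upstream Nf2 rose by 0.56 (adjusted p = 0.000216).

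The machinery of small RNAs and of translation was close to the background or under it. Of 20 genes for microRNA processing and silencing, 3 rose and 3 fell, a share of 30% against 34.0% over all genes, and 7 were higher without tagged replicate 1. Ago1 rose by 0.55 (SE 0.14, adjusted p = 0.00343) and the deadenylase subunit Cnot7 fell by 0.55 (SE 0.11, adjusted p = 0.000358), while the GW182 gene Tnrc6c did not pass (log2 0.18, adjusted p = 0.219). None of the 20 cytosolic ribosomal protein genes rose or fell, with a median of -0.06; without tagged replicate 1 there was 1 that fell, and without tagged replicate 2 the median was 0.07. Rpl3 (log2 -0.07, adjusted p = 0.606) and Rpl4 (log2 -0.05, adjusted p = 0.797) are examples.

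Some genes differed between the tagged cells and both of the other lines. Of the 149 named genes called, 24 had an untagged mean nearer on the log2 scale to Trim71KO than to tagged cells, among them Gli2, Notch3, Acvr2b, Vegfa, Ccna2, Ago1, Cnot7 and Ezh1. The named genes were selected mostly for large changes, and the share over all genes called was not computed, so this count does not extend to them. Of 13 mitochondrially encoded genes 10 fell, with a median of -0.76. Their summed level was 16219 to 19323 CPM in tagged, 12626 to 13818 CPM in Trim71KO and 9256 to 9751 CPM in untagged libraries, so the tagged cells were the highest. ND1, of respiratory complex I, was at 2391, 3078 and 2379 CPM in tagged, 1359, 1197 and 1260 CPM in Trim71KO and 1110, 1207 and 1255 CPM in untagged libraries (log2 of Trim71KO minus tagged -1.04, SE 0.12, adjusted p = 1.21e-06). ATP8, of the ATP synthase, fell by 1.90 (SE 0.16, adjusted p = 1.17e-08), and ND5 did not pass (log2 0.09, adjusted p = 0.593). ATP8 overlaps another mitochondrial gene, so its counts depend on how shared reads were assigned. A set of zinc-finger genes was noticed only after its values were seen: of 61 tested genes named Zfp900 to Zfp999, 36 were lower in Trim71KO. Their summed level was 1976 to 2206 CPM in tagged, 1044 to 1198 CPM in Trim71KO and 1136 to 1271 CPM in untagged libraries. Zfp979 (132, 155 and 116 CPM in tagged and 45.2, 39.0 and 39.0 CPM in Trim71KO) and Zfp988 are examples (log2 -1.71 and -1.69, adjusted p = 9.08e-11 and 7e-10). These genes belong to a family of close copies between which reads can be split.

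The 10 largest increases among genes with at least 4 CPM on the higher side came from low starting levels and shared no single function. Fat2, a giant cadherin, led them at 0.677, 0 and 0.537 CPM against 4.29, 5.81 and 5.93 CPM (log2 3.72, SE 0.42, adjusted p = 5.94e-07). Ccr4, a chemokine receptor, followed at 0.677, 0.459 and 0.215 CPM against 5.57, 5.51 and 4.87 CPM (log2 3.57, SE 0.36, adjusted p = 1.16e-07). The next were Duox1, a peroxide-making oxidase (3.21), the growth factor gene Fgf18 (3), the potassium channel gene Kcnh3 (2.88), the cation channel gene Trpm1 (2.67), Astn1, an adhesion gene of neurons (2.51), the homeobox gene Nkx6-3 (2.50), Trim47, another TRIM family gene (2.46), and Tm9sf5 (2.38), each on the log2 scale. Of these, Kcnh3 stood at 2.77, 4.07 and 2.42 CPM against 23.6, 21.5 and 22.9 CPM (SE 0.19, adjusted p = 1.87e-10), and its untagged libraries were in between at 7.54, 6.89 and 6.80 CPM. The 10 largest decreases were Gata6, Srgn, Cubn, Foxq1, Pdgfra, Sox17, Dab2 and Stra8, given above, together with Car4, a carbonic anhydrase (log2 -3.14, SE 0.28, adjusted p = 1.95e-08), and the row named Mir684-1 (log2 -2.29, SE 0.30, adjusted p = 4.84e-06). The last had 0.74, 0.832 and 0.85 CPM in untagged libraries, the level of Trim71KO (0.871, 0.617 and 1.02 CPM), and 3.51, 5.10 and 3.65 CPM in tagged ones. Of these 10 decreases, 7 are members of the endoderm list, which was drawn up with earlier results of these data known.

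**Figure D4:**
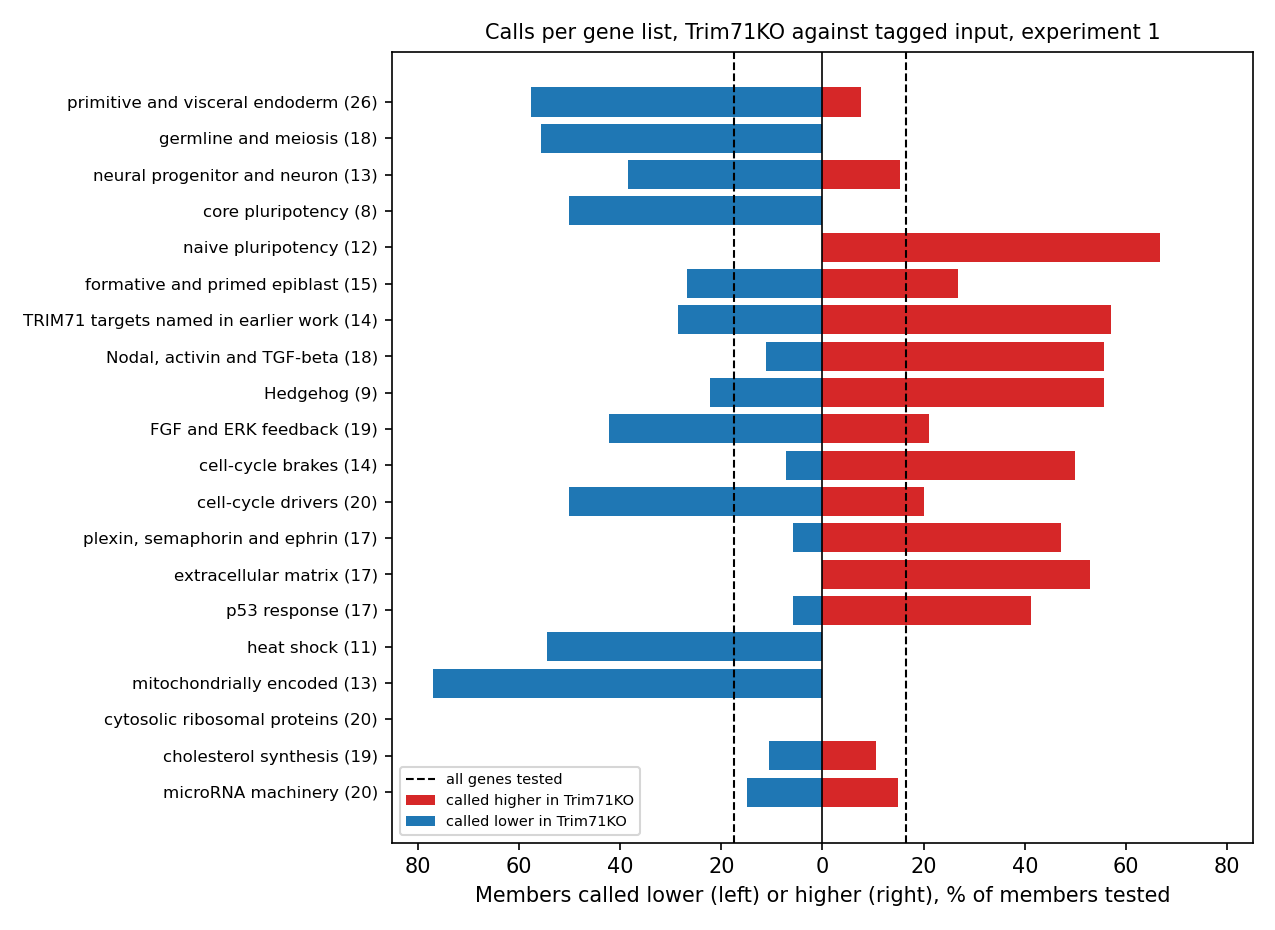
Share of the tested members of 20 gene lists (number tested in parentheses) called lower (left, blue) or higher (right, red) in Trim71KO against tagged input at an adjusted p of 0.05; dashed lines mark the shares over all genes, 17.4% lower and 16.5% higher. The mitochondrially encoded, endoderm, germline and heat shock lists extend furthest to the left and the naive pluripotency and reported target lists furthest to the right, while the ribosomal list has no bar.

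The same genotypes were sequenced again in a second experiment, from 6 further input libraries that share none with the first. Levels are not set across the experiments, since each table was scaled on its own, but changes can be compared. Of 19778 genes tested there, 5383 (27.2%) were called, 2671 (13.5%) higher and 2712 (13.7%) lower; with library size alone as the scale, 34.6% of the calls were higher in place of 49.6%. Of the 18553 genes tested in both, 2352 were called in both, 2015 of them in the same direction, which is 31.8% of the calls of experiment 1 and 38.8% of those of experiment 2, and 337 in opposite directions. A fit of the 12 libraries together called a difference between the experiments in the change in Trim71KO for 4185 of 18399 genes (22.7%).

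Most endoderm genes called in one experiment were called the same way in the other. Of 25 endoderm members tested in experiment 2, 12 fell and 3 rose, 13 had the same call in both experiments, and the median was -0.64. Gata6 fell there by 2.74 (adjusted p = 4.08e-09), from a mean of 4.46 ± 0.621 (SD, n = 3) to 0.664 ± 0.288 CPM, so the fall in experiment 1 was the larger one by 1.92 (SE 0.44, adjusted p = 0.00514). The falls of Dab2, Cubn, Pdgfra, Gata4 and Srgn were also larger in experiment 1 (adjusted p of the difference 0.00439, 0.000883, 0.0109, 0.00216 and 0.00179), while those of Sox17 (2.39 in experiment 2) and Foxq1 (3.09) did not differ by the test (adjusted p = 0.635 and 0.963). All of these genes but Gata4 were named for the size of their fall in experiment 1, a choice that favours larger falls there. In experiment 2 Cubn went from a mean of 2.60 to 1.10 CPM and Srgn from 1.13 to 0.49 CPM. In the germline list 11 of 18 fell in experiment 2, 6 of them called in both. Stra8 fell by 3.16 there and by 2.81 here (adjusted p of the difference 0.111), and the fall of Piwil4 was larger in experiment 2 (2.48, adjusted p of the difference 0.00822). Sycp1 fell in experiment 1 alone by the test (log2 -0.22 in experiment 2, adjusted p = 0.457; adjusted p of the difference 0.00592).

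Of the reported targets, 7 of 13 tested in both experiments had the same call in both. In the Nodal list 6 of 18 did and in the Hedgehog list 5 of 8, against 2015 of 18553 over all genes. Plxnb2 rose by 1.22 in experiment 2 (adjusted p = 1.93e-08), less than here (adjusted p of the difference 0.000483). Lefty1 and Lefty2 rose by 2.71 and 2.40 there, more than here (adjusted p of the difference 0.00814 and 0.00795). Gli1 rose by 1.11 there and 1.13 here and Ccnd2 by 2.11 and 1.60, differences that did not pass (adjusted p = 0.927 and 0.103). The rise of Cdkn1a was not seen in experiment 2: its mean was 64.4 ± 3.07 (SD, n = 3) CPM in tagged and 58.9 ± 4.11 CPM in Trim71KO libraries (log2 -0.13, adjusted p = 0.547; adjusted p of the difference 6e-06). Gdf15 and Bbc3 had changes of -0.33 and -0.21 there (adjusted p = 0.121 and 0.0805), and the p53 list had 2 of 17 higher and 2 lower. Cell-cycle brakes had 2 of 14 higher in experiment 2, and drivers 4 of 20 higher and 2 lower. Ccne1 was at -0.21 there (adjusted p = 0.095; adjusted p of the difference 0.000236).

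Some groups pointed in different directions in the experiments. The core pluripotency list had 5 of 8 members higher in experiment 2, and for 6 of 8 the change differed between the experiments. Lin28a rose there by 0.35 (adjusted p = 0.000275) and fell here by 0.49 (adjusted p of the difference 1.85e-05). Dusp6 rose by 0.56 there (adjusted p = 0.000315) and fell here by 0.68 (adjusted p of the difference 6.7e-07). The mitochondrially encoded genes had a median of 0.17 in experiment 2, and 9 of 13 differed between the experiments. Of the Zfp900 to Zfp999 genes 13 rose and 3 fell there, and Zfp979 rose by 0.39 (adjusted p of the difference 3.07e-08). Naive pluripotency genes were higher in both: 8 of 12 rose and 1 fell in experiment 2, and 6 had the same call.

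**Figure D5:**
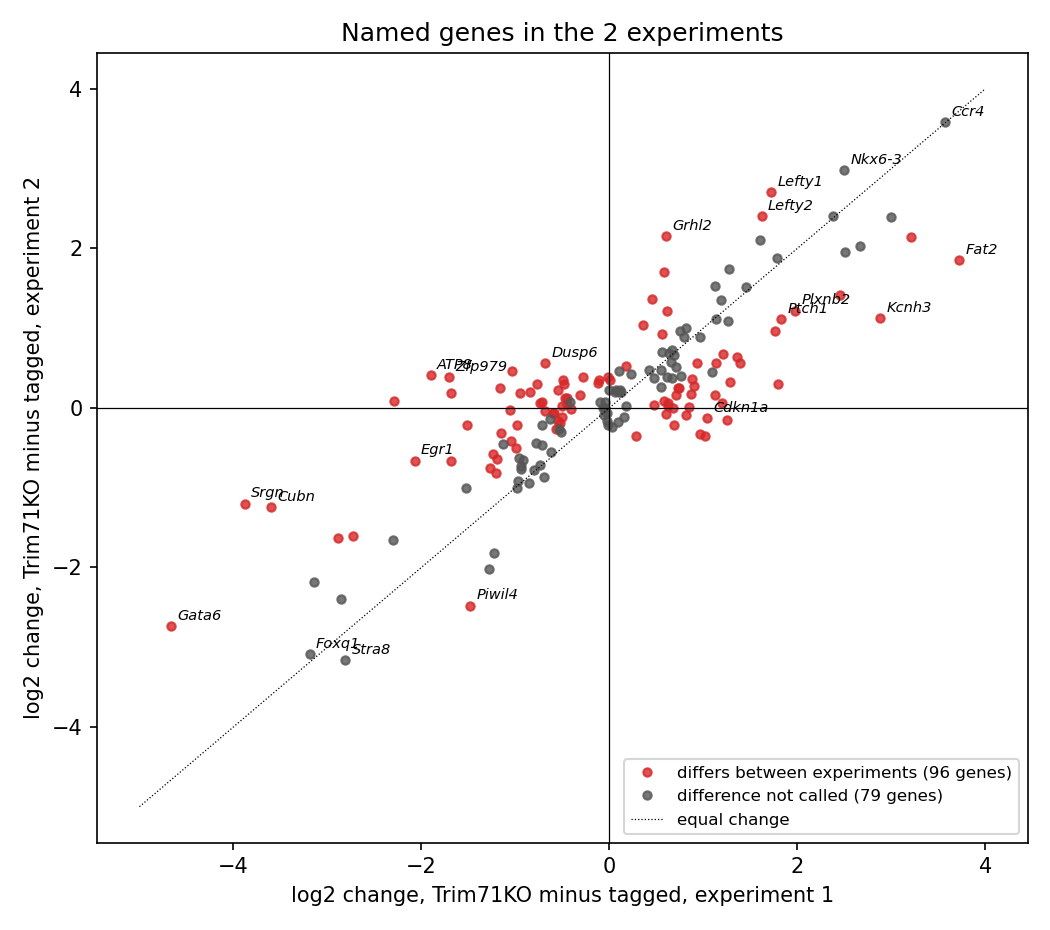
log2 change of the named genes between Trim71KO and tagged input in experiment 1 (x axis) and experiment 2 (y axis); a point is a gene, the dotted line marks equal change, and red points differ between the experiments at an adjusted p of 0.05. The genes were chosen by their values in experiment 1; Stra8 and Ccr4 lie near the line, Gata6 changed by -4.66 and -2.74, and ATP8 and Zfp979 lie on opposite sides of 0 in the 2 experiments.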

How the data were processed

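Total RNA of the lysate was sequenced with a stranded kit, per the labels' protocols. The submitters' processing notes name bcl2fastq 2.20, STAR 2.7.3a and the build GRCm38 (mm10), without roles. The authors deposited raw read counts per gene, which were used, and RPKM values, which the authors deposited for the same libraries and which were not used. The counting program and annotation are not given in the sources used here.

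Groups came from the labels. Genes were filtered with filterByExpr, scaled by TMM and tested with edgeR 4.0.16 (quasi-likelihood, limma 3.58.1, R 4.3.3), with the libraries of each experiment in one fit over its groups, and p-values were adjusted by Benjamini-Hochberg over all genes tested, with a threshold of 0.05. These fits of each experiment included its HA pull-down libraries, which share in the estimate of spread. In experiment 1 the input libraries alone gave 7301 calls and the 6 libraries compared 6143, in place of 6377. In experiment 2 these counts were 6423 and 5775, in place of 5383. The difference between the experiments is an interaction in a fit of their 12 tagged and Trim71KO inputs. CPM values are not per length, so levels are not compared between genes. The scripts were tested on simulated data. Alternatives were other size factors, no filter, DESeq2 1.42.0, fewer libraries in the fit, the replicate number as a block, each library left out in turn and, added after the data were seen, removal of the trend with gene length.

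The genes named are a selection, mostly those whose call held under every alternative, from this rule: in each list up to 4 called genes per direction with the largest change, a mean of at least 2 CPM in the higher group and no overlap between groups, up to 2 genes not called with at least 20 CPM, markers of other cell types, and the 10 largest changes per direction among genes with at least 4 CPM. Outside the rule are the genes said in the text to be named after their values were seen, the Zfp examples and Pdgfrb and Tagln, named to complete a list. The comparison and the gene lists were chosen with earlier results of these data known, and some genes are in several lists. In experiment 2 libraries with the same replicate number deviated together (r = 0.23, 0.30 and 0.35), so there the numbers pair the libraries; this comes from the data and not from the labels. With the number as a block 5810 genes were called in experiment 2 in place of 5383. A few list members are counted in their lists but not reported here by name.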

Additional observations from a re-analysis of the deposited data

Results flagged for a closer look

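The change in Trim71KO differed between experiments 1 and 2, by the interaction test in edgeR, for 4185 of 18399 genes, and the named genes among them are given here as the log2 change in experiment 1 minus that in experiment 2. A negative value is a lower change in experiment 1. No cause of these differences was tested, and the genes were named mostly by their values in experiment 1. Among endoderm genes the difference was positive for Nid1 (0.53). Negative differences were found for Srgn (-2.69), Cubn (-2.36), Gata6 (-1.92), Pdgfra (-1.25), Dab2 (-1.13), Gata4 (-1.02), Lama1 (-0.67) and Serpinh1 (-0.30). Among pluripotency and epiblast genes the difference was positive for Tfcp2l1 (0.55) and Klf4 (0.48). The negative ones were Grhl2 (-1.55), Foxd3 (-0.92), Lin28a (-0.84), Zic2 (-0.83), Otx2 (-0.61), Dppa4 (-0.57), Utf1 (-0.53), Zic5 (-0.52), Dnmt3a (-0.49), Sall4 (-0.47), Sox2 (-0.46), Dnmt3b (-0.39) and Nanog (-0.33). Among germline and neural genes the difference was positive for Map2 (1.15), Piwil4 (1.00) and Ncam1 (0.83). On the other side were Sycp1 (-1.29) and Nefl (-0.39). Among reported TRIM71 targets the difference was positive for Cdkn1a (1.17), Plxnb2 (0.76), Rbl2 (0.70) and Inhbb (0.38). Lower values in experiment 1 belonged to Egr1 (-1.42), Lefty1 (-0.99), Lefty2 (-0.78) and Shcbp1 (-0.52). Among Nodal, Hedgehog and BMP genes the difference was positive for Acvr2b (0.85), Ptch1 (0.72) and Gli2 (0.49). Below 0 were Id3 (-1.13), Id1 (-1.04), Bmp4 (-0.67), Nodal (-0.43) and Skil (-0.34). Among Notch, FGF and LIF genes the difference was positive for Notch3 (0.95), Notch2 (0.63) and Notch1 (0.59). Differences below 0 were those of Dusp6 (-1.24), Gbx2 (-1.07), Junb (-0.77), Socs2 (-0.50) and Spry4 (-0.37). Among cell-cycle, p53 and BCL2 family genes the difference was positive for Gdf15 (1.29), Bbc3 (0.90), Btg2 (0.52) and Bmf (0.49). The difference was below 0 for Ccne2 (-1.14), Ccne1 (-0.77), Pmaip1 (-0.66), Cdk1 (-0.39) and Ccna2 (-0.39). Among matrix, adhesion and guidance genes the difference was positive for Fbn2 (1.49), Plxna2 (1.40), Col1a1 (1.37), Epha4 (0.95), Col5a1 (0.91), Tgfbi (0.79), Thy1 (0.72), Ephb2 (0.59) and Pecam1 (0.45). Negative values were those of Cdh1 (-0.33). Among imprinted and chromatin genes the difference was positive for Ezh1 (0.68) and Tet2 (0.64). A negative difference was found for Igf2 (-1.41), Eed (-0.78), Peg10 (-0.64) and Rnf2 (-0.59). Among stress, metabolic, Hippo and other listed genes the difference was positive for Vegfa (0.68) and Pfkp (0.57). With a negative sign came Ccn2 (-1.03), Rarg (-0.80), Ajuba (-0.78), Hspd1 (-0.63), Bnip3 (-0.54), Hspe1 (-0.53) and Cnot7 (-0.38). Among mitochondrially encoded and zinc-finger genes the difference was negative for ATP8 (-2.31), Zfp979 (-2.10), Zfp988 (-1.88) and ND1 (-1.50). Among the other genes with the largest changes the difference was positive for Fat2 (1.87), Kcnh3 (1.75), Duox1 (1.08) and Trim47 (1.05). Of negative sign were Mir684-1 (-2.38).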

How the results depend on the processing

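The number of genes called in experiment 1 (6377) stayed between 6119 and 7301 under the alternatives that keep all libraries compared, and between 4703 and 6626 when each library was left out in turn, lowest without tagged replicate 2 and highest without tagged replicate 1. In experiment 2 the range was 4273 to 4643 with a library left out, for the difference between the experiments 2887 to 5743, and for calls shared in direction 1715 to 1926. The replicate numbers of experiment 1 do not pair the libraries (r = -0.07, 0.09 and -0.06), and with the replicate block 6418 genes were called. The block gave 4413 genes for the difference between the experiments. With the trend with gene length removed, chosen after seeing the data, 39.8% of the calls in experiment 1 were higher in place of 48.6%, and 57.3% with library size alone. In experiment 2, library size alone gave 1845 higher and 3494 lower calls. List counts that 1 library moved by over 1.5 times and that are not given above include the TRIM-NHL partners (6 higher, 1 without tagged replicate 3) and the oxidative stress list (5 higher, 2 without tagged replicate 3 or any one Trim71KO library). Of the named genes called in experiment 1, Trim71, Tnrc6a, Cited1, Sall4, Col1a1 and Pecam1 lost the call under at least 1 alternative, and none reversed. The named genes are mostly those whose call held, so these losses do not show how often calls are lost in general. Ago2, Lama1, Notch2 and Cdh1, not called, were called under at least 1. With the trend with gene length removed, the Hippo list had 2 higher and 6 lower, the hypoxia list 8 lower, and the TRIM-NHL partners 2 higher and 6 lower. The Polycomb and extracellular matrix lists kept their counts. Tagged replicate 2 and gene length move together, and their separate parts in changes of long genes were not tested. Depth limits genes of few counts, such as Foxa2, and 3 libraries a group limit small changes.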
